A study of Mus musculus with 30 samples.

Results

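The clustered protocadherins are cell surface adhesion proteins encoded by 3 gene clusters, alpha (Pcdha), beta (Pcdhb) and gamma (Pcdhg), that lie next to each other on mouse chromosome 18. Members were all genes in the count tables whose symbol starts with Pcdha, Pcdhb, Pcdhga, Pcdhgb or Pcdhgc and ends in a number or in c plus a number, which gave 58 of 55487 genes. They comprised 14 alpha genes, 22 beta genes and 22 gamma genes. By type, 12 were alpha genes numbered up to Pcdha12, 22 were beta genes, 12 were gamma A, 7 were gamma B and 5 were C-type genes (Pcdhac1, Pcdhac2, Pcdhgc3, Pcdhgc4 and Pcdhgc5). Pcdha11 was present under 2 Ensembl identifiers, which were kept apart, so the 58 genes carried 57 symbols. Pcdha10 had no gene in the tables, and whether one of these identifiers holds its counts is not known, so the values and the position of Pcdha11 are uncertain.

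Each alpha and gamma gene begins with its own large first exon, which encodes the extracellular and transmembrane part of the protein, and is spliced to constant exons that the whole cluster shares and that encode the cytoplasmic end. Beta genes have a single exon and no shared part. The proteins bind their like between cells and are best known from neurons, where each cell uses a small, largely random set of the alternate genes while the C-type genes are used more uniformly, and where neurons tell their own branches from those of other cells by this set. Promoter choice is known to depend on CTCF, cohesin and DNA methylation, and the repressive mark H3K9me3 (histone H3 trimethylated at lysine 9), written by SETDB1 among others, is known to cover parts of these clusters.

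The study addresses how ETV2 (also called ER71), a transcription factor of the first blood and endothelial cells, acts together with KDM4A, a demethylase of H3K9. RNA was sequenced in 18 libraries in 6 groups of 3, all labelled mouse embryonic stem cell. In the first experiment the iETV2 line, in which Etv2 is induced with doxycycline (DOX), was sampled with DOX and without DOX. In the second experiment the line iETV2-KDM4A (H188A), called H188A here after its KDM4A variant, was sampled with DOX and without DOX. In the third experiment, cells labelled KDM4A/4C DKO (double knockout) were set against control cells whose labels give no line and no DOX treatment. H3K9me3 was mapped in 6 libraries named for embryoid bodies (EB), 3 with DOX and 3 untreated, and the DOX libraries were named DOX-D2, DOX-D3 and Er71-Flag-DOX-D2, so they were not equal replicates. The labels do not state separate cultures, so p-values measure the spread between these libraries, which may be technical. Each line is 1 line and the number of clones behind the DKO is not given, so line, clone and experiment cannot be told apart from the genotype.

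Library totals were 40334911 to 68970038 counts. Levels are given in CPM, the counts of a gene scaled to a common library total. Etv2 was 18.1 to 19.7 CPM in iETV2 with DOX and 2.73 to 3.05 CPM in iETV2 without DOX. It was 11.5 to 18.6 CPM in H188A with DOX and 0.139 to 0.669 CPM in H188A without DOX. Kdm4a was 42.0 to 46.9 CPM in libraries labelled DKO and 53.9 to 55.7 CPM in controls, and Kdm4c was 42.7 to 48.0 CPM in DKO and 29.6 to 32.2 CPM in controls. Etv2 was 2.40 to 3.25 CPM in libraries labelled DKO and 7.33 to 8.65 CPM in controls. The gene counts thus do not show loss of either transcript, and the deleted parts are not given in the labels. Hence the labels of this comparison could not be checked, DKO and control mean the libraries labelled so throughout, and all its directions rest on those labels. The mitochondrial share of counts was 5.14 to 5.35% in iETV2 with DOX and 4.02 to 4.13% in iETV2 without DOX. It was 5.52 to 6.17% in H188A with DOX and 4.81 to 5.55% in H188A without DOX, and 4.82 to 5.67% in DKO and 3.64 to 3.73% in controls, and its part in any result was not tested. The summed level of 1754 odorant, vomeronasal and trace-amine receptor genes, which these cells should hardly use, was 49.1 to 598 CPM in H188A without DOX, with replicate 1 highest, and 18.5 to 182 CPM in the other 5 groups. The sources used here do not say how reads in the constant exons, or reads shared between these similar paralogs, were counted, so values of single genes are uncertain. The readthrough gene model Gm37013, which starts at Pcdha4 and runs to the end of the gamma cluster, was listed at 0 in all 18 libraries.

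The gamma cluster made up most of the counts. It held 92.4 to 94.2% of all clustered protocadherin counts in iETV2 with DOX and 90.9 to 93.8% in iETV2 without DOX. Its share was 85.7 to 90.1% in H188A with DOX and 76.9 to 86.8% in H188A without DOX, and 88.3 to 89.1% in DKO and 89.4 to 90.3% in controls. Summed over all 18 libraries, the genes with the most counts were Pcdhgc3, Pcdhga7 and Pcdhga2 in the gamma cluster, Pcdhb22, Pcdhb16 and Pcdhb14 in the beta cluster, and Pcdhac2, Pcdha12 and Pcdha11 (ENSMUSG00000102206) in the alpha cluster. By group mean, Pcdhgc3, a C-type gene at the end of the gamma cluster, and Pcdhb22, the last beta gene, had the highest CPM of their clusters in all 6 groups. The next gamma gene was Pcdhgc4 in both iETV2 groups and in controls, Pcdhga1 in both H188A groups and Pcdhga7 in DKO. The first alpha gene by group mean was Pcdhac2 in iETV2 with DOX and in controls, Pcdha12 in iETV2 without DOX and in both H188A groups, and Pcdha7 in DKO. CPM are not divided by transcript length, so these shares are shares of counts and not of transcripts.

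The summed level of the gamma cluster was 308, 340 and 301 CPM in iETV2 with DOX and 207, 246 and 233 CPM in iETV2 without DOX. It was 146, 106 and 104 CPM in H188A with DOX and 106, 103 and 104 CPM in H188A without DOX. It was 203, 196 and 193 CPM in DKO and 161, 163 and 170 CPM in controls. By mean the order ran from iETV2 with DOX, over iETV2 without DOX, DKO and controls, to H188A with and without DOX, and only the H188A pair overlapped among neighbours in that order.

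The alpha cluster summed to 3.74, 3.63 and 4.62 CPM in iETV2 with DOX and 3.76, 3.99 and 6.95 CPM in iETV2 without DOX. In H188A it was 6.47, 3.17 and 3.30 CPM with DOX and 9.42, 4.94 and 3.71 CPM without DOX. In DKO it was 12.6, 11.5 and 11.1 CPM, against 6.92, 5.55 and 6.21 CPM in controls. Only the DKO libraries stood clear of their partner group. Replicate 1 of H188A without DOX, which had the highest alpha sum of its group, also had the highest receptor sum, and replicate 3 of iETV2 without DOX likewise led its group in both at 6.95 CPM and 182 CPM. Whether the receptor signal has a part in these sums was not tested.

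The beta cluster summed to 16.6, 17.2 and 20.2 CPM in iETV2 with DOX and 12.2, 12.3 and 16.5 CPM in iETV2 without DOX. It was 17.8, 11.1 and 8.12 CPM in H188A with DOX and 22.4, 15.2 and 12.1 CPM in H188A without DOX. It was 12.2, 14.4 and 14.4 CPM in DKO and 12.2, 12.04 and 13.6 CPM in controls. The iETV2 groups did not overlap, whereas the H188A groups and the knockout groups did.

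**Figure D1:**
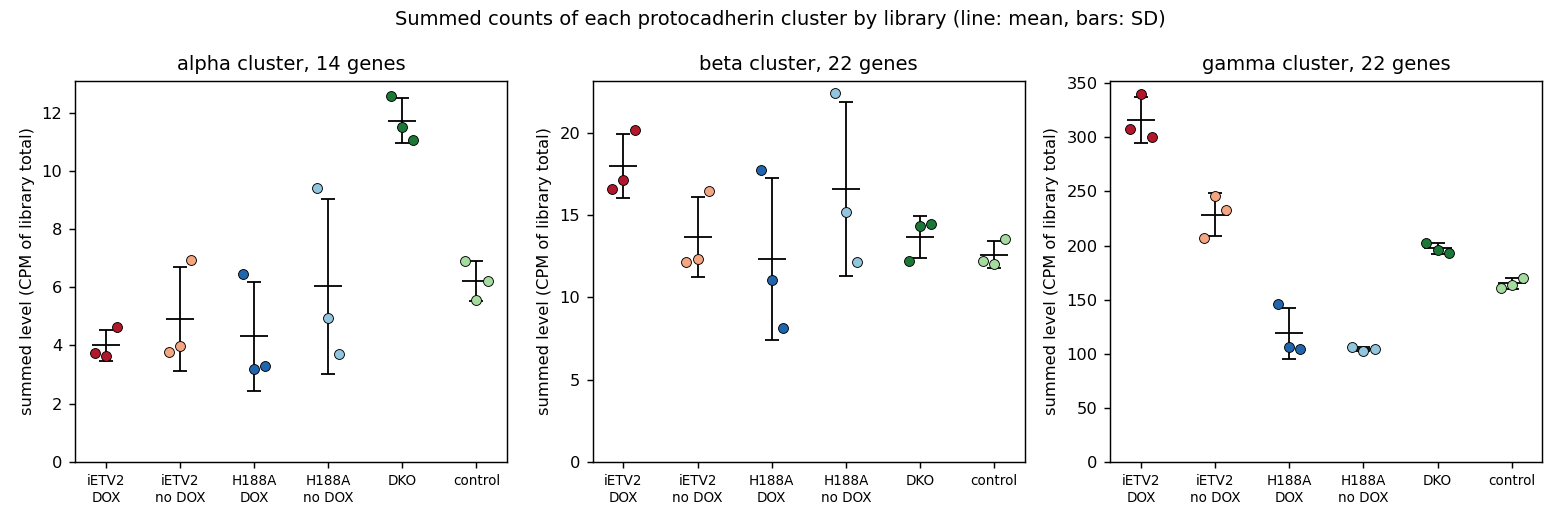
Summed level of the alpha, beta and gamma clusters in CPM of the library total (linear axes from 0), with 1 point per library and the mean and SD of 3 libraries per group. The gamma cluster is lowest in both H188A groups, and the alpha cluster of the DKO libraries, at 11.1 to 12.6 CPM, lies above the controls at 5.55 to 6.92 CPM.

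In the libraries labelled DKO the alpha cluster changed in make-up. The numbered alpha genes from Pcdha1 to Pcdha11 summed to 10.1, 8.70 and 8.25 CPM in DKO and 1.85, 1.47 and 2.34 CPM in controls. Pcdhac2, the C-type gene nearest the constant exons, was 1.04, 1.22 and 1.22 CPM in DKO and 4.71, 3.69 and 3.57 CPM in controls. Neither pair of groups overlapped, and the changes ran in opposite directions within one cluster.

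Tests used edgeR's quasi-likelihood test on all genes that passed its filter on low counts, with Benjamini-Hochberg adjustment over all of them and a threshold of 0.05. In this comparison 69.3% of the 20426 genes tested passed, 35.6% higher and 33.7% lower in DKO. Of the 58 protocadherins 49 were tested, of which 29 were higher, 5 were lower and 15 did not pass. Taken in either direction, 34 of 49 is the share found over all genes, so that count alone says nothing of these genes, and only the split into higher and lower lay off the background. The median log2 change of the 49 was 0.85, beside 0.04 over all genes tested. The filter can keep a gene on its DKO level alone, so these counts are read only as counts. Without that filter all 58 were tested and 34 passed, where 33.5% of all genes passed.

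Among alpha genes 13 of 14 were tested, with 12 higher and Pcdhac2 lower. The genes from Pcdha1 to Pcdha11 that were tested, 10 of 11 with both Pcdha11 identifiers counted, were all higher, at log2 changes from 1.177 to 3.31 and a median of 2.33. The weakest was Pcdha9 (SE 0.51, edgeR adjusted p = 0.0463), whose call was lost in 5 of 6 fits that left out 1 library. Pcdha4, the one left untested, was 0.185, 0.106 and 0.126 CPM in DKO and 0.162, 0.0784 and 0.0316 CPM in controls. Pcdha7 had the smallest adjusted p among them. It was 1.43, 1.17 and 1.22 CPM in DKO, which is 58 to 66 counts, and 0.0898, 0.0784 and 0.174 CPM in controls, which is 4 to 11 counts. Its groups did not overlap, and its log2 change was 3.31 (SE 0.43, edgeR adjusted p = 7.02e-07). Pcdha12 was 0.971, 1.01 and 0.905 CPM in DKO and 0.180, 0.235 and 0.0316 CPM in controls (log2 change 2.58, SE 0.52, edgeR adjusted p = 0.000145). Pcdhac1, the other C-type gene of this cluster, was 0.439, 0.6 and 0.695 CPM in DKO and 0.180, 0.157 and 0.269 CPM in controls (log2 change 1.38, SE 0.47, edgeR adjusted p = 0.0137), a call lost in 3 of 6 such fits. Pcdhac2 fell by 1.90 on the log2 scale (SE 0.19, edgeR adjusted p = 1.37e-08). Its share of all alpha counts was 9.96% ± 1.5 in DKO and 64% ± 5.7 in controls (SD, n = 3 each). The genes from Pcdha1 to Pcdha11 held 76.8% ± 3.2 in DKO and 30.3% ± 6.4 in controls.

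**Figure D2:**
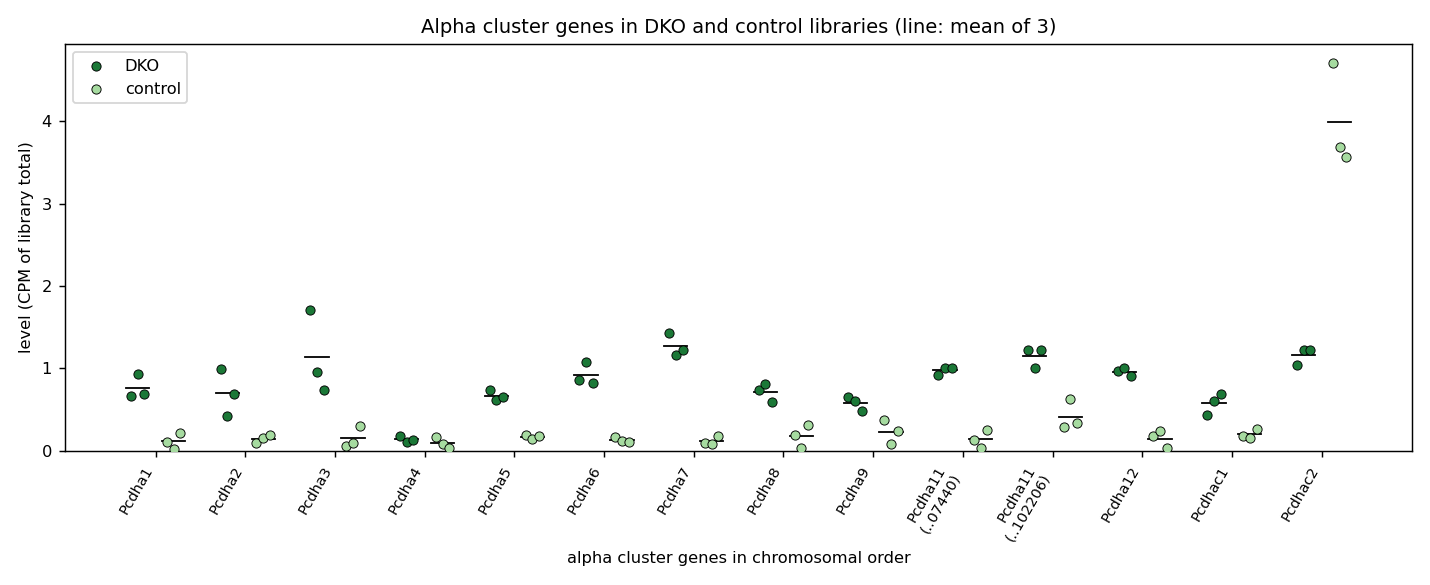
Level of each alpha cluster gene in CPM of the library total in DKO (left, dark) and control (right, light) libraries, with 1 point per library and a line at the mean of 3. The 2 Pcdha11 identifiers are marked by their last digits. Pcdhac2 is the gene that lies lower in DKO, at 1.04 to 1.22 CPM against 3.57 to 4.71 CPM in controls.

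In the gamma cluster all 22 genes were tested, with 12 higher in the libraries labelled DKO, 2 lower and 8 that did not pass. All 12 that were higher were gamma A or B genes, and the 2 lower ones were Pcdhgb6 and Pcdhgc3. Gamma A and B genes together summed to 122, 114 and 116 CPM in DKO and 74.7, 75.5 and 78.4 CPM in controls. The 3 C-type gamma genes summed to 80.7, 81.3 and 77.1 CPM in DKO and 86.1, 87.9 and 92.01 CPM in controls. Most of the C-type sum is Pcdhgc3.

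Pcdhga1, the first gene of the gamma cluster, had the smallest adjusted p of all clustered protocadherins. It was 7.68, 7.18 and 8.15 CPM in DKO and 1.47, 1.47 and 1.52 CPM in controls. The groups lay far apart, and its log2 change was 2.24 (SE 0.14, edgeR adjusted p = 3.37e-12). Pcdhga1 made up 6.53% ± 0.41 of gamma A and B counts in DKO and 1.95% ± 0.018 in controls (SD, n = 3 each). Pcdhga7 averaged 9.53 ± 0.403 CPM in DKO and 4.75 ± 0.181 CPM in controls, with a log2 change of 0.88 (SE 0.10, edgeR adjusted p = 1.07e-07). Pcdhgb1 and Pcdhgb4 rose by 1.04 (SE 0.13) and 0.94 (SE 0.12), with edgeR adjusted p = 3.17e-07 and 5.81e-07. Pcdhgb6 was 4.23, 4.04 and 4.53 CPM in DKO and 4.58, 5.49 and 5.80 CPM in controls, and fell by 0.43 (SE 0.13, edgeR adjusted p = 0.00459).

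Pcdhgc3 was 64.9, 65.1 and 62.5 CPM in DKO and 70.8, 73.2 and 75.7 CPM in controls. It fell by 0.31 on the log2 scale (SE 0.04, edgeR adjusted p = 7.21e-07). Pcdhgc4 had a log2 change of -0.23 (SE 0.10, edgeR adjusted p = 0.0522) and Pcdhgc5 of -0.01 (SE 0.10, edgeR adjusted p = 0.945). TMM scaling, which the tests use, lowers DKO against control by 0.11 on the log2 scale relative to CPM. That shift is smaller than the change of Pcdhgc3, which was lower in DKO on both scales.

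Of the 22 beta genes 14 were tested in this comparison, and 5 were higher in the libraries labelled DKO, 2 were lower and 7 did not pass. Pcdhb14 was 1.66, 2.81 and 2.76 CPM in DKO and 0.431, 0.274 and 0.348 CPM in controls (log2 change 2.65, SE 0.30, edgeR adjusted p = 9.35e-08). Pcdhb21 and Pcdhb22, the last genes of the cluster, were the ones that fell. Pcdhb21 was 0.254, 0.812 and 0.526 CPM in DKO and 2.19, 2.29 and 1.57 CPM in controls, and fell by 2.01 (SE 0.33, edgeR adjusted p = 1.27e-05). Pcdhb22 was 3.38, 3.03 and 2.48 CPM in DKO and 3.95, 3.96 and 5.09 CPM in controls, and fell by 0.67 (SE 0.15, edgeR adjusted p = 0.000596). Pcdhb16 did not pass, at 1.21 ± 0.313 CPM in DKO and 0.954 ± 0.218 CPM in controls (log2 change 0.21, SE 0.30, edgeR adjusted p = 0.549).

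The libraries labelled DKO and control also differed in markers of cell type. Summed over 10 pluripotency markers the level was 2450 to 2510 CPM in DKO and 148 to 159 CPM in controls, and all 10 were higher in DKO. Pou5f1, a core pluripotency factor, averaged 369 ± 18 CPM in DKO and 22.8 ± 0.53 CPM in controls, so the embryonic stem cell label did not match the controls' markers. Of 14 tested neural markers 11 were higher and 1 was lower in DKO, at summed levels of 191 to 192 CPM in DKO and 70.9 to 75.8 CPM in controls. All 7 tested endothelial markers were lower in DKO, at 123 to 127 CPM in DKO and 573 to 581 CPM in controls. Fibroblast markers summed to 96.0 to 98.2 CPM in DKO and 576 to 590 CPM in controls, with 3 of 10 higher and 7 lower in DKO. Endoderm markers summed to 107 to 112 CPM in DKO and 135 to 140 CPM in controls, with 4 of 6 tested lower and 0 higher. The part of these markers in the protocadherin changes was not tested, and in bulk RNA fewer cells that use a gene and less RNA per cell cannot be told apart. Receptor sums were 58.4 to 63.0 CPM in DKO and 18.5 to 56.9 CPM in controls. Control replicate 3 had the 56.9 CPM, and its sum of Pcdha1 to Pcdha11 was 2.34 CPM. With a receptor covariate, added after seeing the data, 30 protocadherins passed in DKO in place of 34. The calls of Pcdha8, Pcdha9, Pcdhac1, Pcdhb2 and Pcdhb7 were then lost. Receptor sums did not overlap between these groups, so the covariate cannot fully separate receptor signal from group.

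Among 37 regulators of these clusters 36 were tested in DKO, with 17 higher and 14 lower. Dnmt3b, a de novo DNA methyltransferase, averaged 315 ± 13 CPM in DKO and 97.8 ± 1.4 CPM in controls (log2 change 1.56, SE 0.04, edgeR adjusted p = 4.48e-19). Its catalytically inactive partner Dnmt3l was higher by 4.91 (SE 0.08, edgeR adjusted p = 3.75e-22), and Tet1, which oxidises methylated cytosine, by 1.84 (SE 0.04, edgeR adjusted p = 5.22e-21). Suv39h1, an H3K9 methyltransferase, averaged 109 ± 3.9 CPM in DKO and 263 ± 4.5 CPM in controls and fell by 1.39 (SE 0.04, edgeR adjusted p = 5.61e-18). Smchd1, a chromatin protein that represses these clusters in mouse, was higher by 0.32 (SE 0.04, edgeR adjusted p = 5.19e-08). Ctcf did not pass, at 190 ± 4 CPM in DKO and 167 ± 2.1 CPM in controls (log2 change 0.06, SE 0.04, edgeR adjusted p = 0.135).

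Genes around the clusters did not all follow them. Of 18 neighbours 17 were tested in DKO, with 5 higher and 9 lower, and a median log2 change of -0.22. Taf7, a single-exon gene between the beta and gamma clusters, averaged 43.1 ± 1.7 CPM in DKO and 20.4 ± 1.6 CPM in controls (log2 change 0.96, SE 0.06, edgeR adjusted p = 5.09e-12). Diaph1, an actin regulator just past the gamma cluster, was higher by 0.26 (SE 0.04, edgeR adjusted p = 2.12e-06). Arap3, an endothelial signalling gene further on, fell by 3.04 (SE 0.07, edgeR adjusted p = 7.37e-20). Of 12 non-clustered protocadherins 10 were tested, with 7 higher and 2 lower in DKO. Pcdh12, an endothelial protocadherin, was one of the 2 that fell, by 2.62 (SE 0.14, edgeR adjusted p = 2.65e-13), and Pcdh19 was among those higher, by 1.59 (SE 0.14, edgeR adjusted p = 1.92e-09). Of 14 intracellular partners of the clustered proteins, 3 were higher and 9 lower. The kinase gene Ptk2b was higher by 1.63 (SE 0.06, edgeR adjusted p = 2.91e-16), and Adam10, the protease that sheds these proteins, fell by 0.75 (SE 0.04, edgeR adjusted p = 3.77e-13).

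Between the lines, the gamma cluster was lower in H188A than in iETV2 with and without DOX. This comparison was fitted on the 12 libraries of both lines. Without DOX 38.3% of the 25516 genes tested passed, 19.7% higher and 18.6% lower in H188A. Of 56 protocadherins tested 3 were higher and 22 lower, a total not far above the background share. With DOX 37.6% of genes passed, 19.9% higher and 17.6% lower, and again 3 of 56 protocadherins were higher and 22 lower. In each comparison 21 of the 22 gamma genes were lower and Pcdhga1 was higher. These comparisons use different libraries of the same lines.

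The C-type gamma genes differed most. Pcdhgc3 was 11.5, 12.5 and 12.5 CPM in H188A without DOX and 65.3, 68.4 and 64.9 CPM in iETV2 without DOX. It fell by 2.39 on the log2 scale (SE 0.09, edgeR adjusted p = 1.06e-11). With DOX it was 22.9, 19.3 and 19.6 CPM in H188A and 99.8, 102 and 96.0 CPM in iETV2, and fell by 2.17 (SE 0.09, edgeR adjusted p = 2.8e-11). Neither pair of groups came near to overlapping.

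Pcdhgc4 was 1.98, 0.992 and 1.13 CPM in H188A without DOX and 11.3, 12.3 and 11.7 CPM in iETV2 without DOX, and fell by 3.096 (SE 0.18, edgeR adjusted p = 8.33e-10). With DOX it fell by 3.15 (SE 0.17, edgeR adjusted p = 5.67e-10). Pcdhgc5 was 2.33, 1.86 and 1.51 CPM in H188A without DOX and 7.11, 8.13 and 8.90 CPM in iETV2 without DOX, and fell by 2.05 (SE 0.16, edgeR adjusted p = 3.63e-08). With DOX it fell by 3.19 (SE 0.17, edgeR adjusted p = 4e-10). The 3 genes together held 14.8% ± 0.26 of gamma counts in H188A without DOX and 37.7% ± 2.3 in iETV2 without DOX (SD, n = 3 each). With DOX they held 20.3% ± 1.9 in H188A and 41% ± 1.9 in iETV2.

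Among gamma A and B genes the log2 changes without DOX ran from -1.43 to 0.89 with a median of -0.73. Pcdhgb7 averaged 1.99 ± 0.348 CPM in H188A without DOX and 5.59 ± 0.976 CPM in iETV2 without DOX, and fell by 1.43 (SE 0.22, edgeR adjusted p = 6.83e-05). Pcdhga3 fell by 0.83 (SE 0.13, edgeR adjusted p = 8.4e-05) and Pcdhga6 by 1.14 (SE 0.21, edgeR adjusted p = 0.000454). With DOX the smallest adjusted p among gamma A and B genes were those of Pcdhgb7, at -1.87 (SE 0.22, edgeR adjusted p = 4.19e-06), Pcdhga10, at -1.39 (SE 0.17, edgeR adjusted p = 6.7e-06), and Pcdhgb5, at -1.10 (SE 0.15, edgeR adjusted p = 2.69e-05). The calls were spread along the gamma cluster, with Pcdhga1 the one in the other direction. Without DOX the call of Pcdhga12 was lost in 4 of 6 fits that left out 1 library, that of Pcdhga8 in 3 of 6, and those of Pcdhga9 and Pcdhgb4 in 2 of 6 each.

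Pcdhga1 was 9.72, 10.5 and 10.95 CPM in H188A without DOX and 5.51, 5.57 and 6.504 CPM in iETV2 without DOX. Its log2 change was 0.89 (SE 0.10, edgeR adjusted p = 4.18e-06). With DOX it was 10.3, 10.2 and 9.52 CPM in H188A and 7.59, 8.93 and 7.89 CPM in iETV2 (log2 change 0.39, SE 0.10, edgeR adjusted p = 0.00712), a call lost in 1 of 6 fits that left out 1 library. Its share of gamma A and B counts was 11.7% ± 0.84 in H188A without DOX and 4.14% ± 0.51 in iETV2 without DOX.

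**Figure D3:**
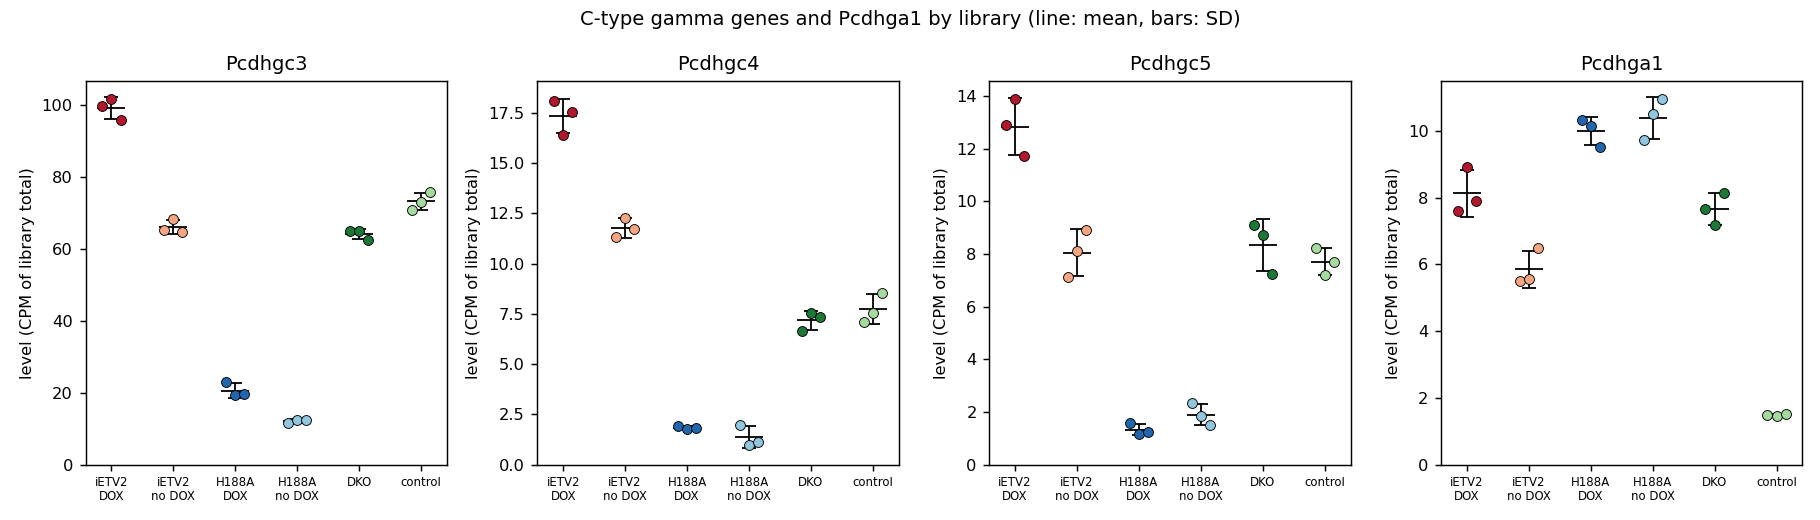
Level of the 3 C-type gamma genes and of Pcdhga1 in CPM of the library total (linear axes from 0) in each library, with the mean and SD of 3 libraries per group. The C-type genes are lowest in the H188A groups, Pcdhgc3 at 11.5 to 22.9 CPM there, whereas Pcdhga1 is lowest in controls at 1.47 to 1.52 CPM.

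Few alpha and beta genes were called between the lines. Most genes of these clusters had group means under 1 CPM, so genes not called are not shown to be equal. No alpha gene of 12 tested passed by edgeR in H188A against iETV2 without DOX, with 1 at an unadjusted p under 0.05 and 1 called by DESeq2. With DOX none of 12 passed by either tool, with 2 at an unadjusted p under 0.05 in edgeR. Of 22 beta genes tested, 2 were higher and 1 was lower in H188A in each comparison. Without DOX 18 of the 22 had a positive log2 change, with a median of 0.72, beside 0.10 over all genes tested. With DOX 10 of the 22 were positive, with a median of -0.22, beside -0.08 over all genes tested. Pcdhb22 was the one that fell, at 2.52 ± 0.749 CPM in H188A without DOX and 4.65 ± 0.370 CPM in iETV2 without DOX (log2 change -0.85, SE 0.21, edgeR adjusted p = 0.00435). With DOX its log2 change was -1.33 (SE 0.21, edgeR adjusted p = 9.25e-05). Pcdhb6 was 1.44, 1.57 and 1.29 CPM in H188A without DOX and 0.464, 0.394 and 0.775 CPM in iETV2 without DOX (log2 change 1.47, SE 0.32, edgeR adjusted p = 0.00167). Pcdhb7 had a log2 change of 1.53 (SE 0.57, edgeR adjusted p = 0.0459), its groups overlapped, and its call was lost in 4 of 6 fits that left out 1 library. With DOX the 2 beta genes that were higher were Pcdhb2, by 1.52 (SE 0.41, edgeR adjusted p = 0.00817), and Pcdhb6, by 1.06 (SE 0.32, edgeR adjusted p = 0.0157), the second a call lost in 3 of 6 such fits. Without H188A replicate 1, the library with the highest receptor sum, 24 protocadherins passed without DOX in place of 25. Leaving it out moved the log2 ratio of the summed alpha cluster without DOX from 0.298 to -0.180. That of the beta cluster moved from 0.280 to 0.001.

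Marker sums differed between the lines as well. Without DOX the pluripotency markers summed to 2090 to 2170 CPM in H188A and 1010 to 1060 CPM in iETV2, with 8 of 10 higher and 1 lower in H188A. Neural markers summed to 369 to 373 CPM in H188A and 266 to 280 CPM in iETV2, with 11 of 15 higher and 2 lower. Endothelial markers summed to 92.5 to 102 CPM in H188A and 16.1 to 20.6 CPM in iETV2, with 4 of 8 higher and 1 lower. Pecam1 averaged 52.7 ± 0.55 CPM in H188A and 5.76 ± 0.68 CPM in iETV2. Kdr, the one that was lower, averaged 3.26 ± 2.1 CPM in H188A and 7.92 ± 1.3 CPM in iETV2. Fibroblast markers were 39.7 to 53.1 CPM in H188A and 42.2 to 58.0 CPM in iETV2, and endoderm markers 117 to 138 CPM in H188A and 215 to 235 CPM in iETV2. Of 9 fibroblast markers tested 2 were higher and 2 lower, and of 8 endoderm markers 3 were higher and 2 lower. With DOX the pluripotency sums were 1830 to 2210 CPM in H188A and 1050 to 1150 CPM in iETV2, with 9 of 10 higher and 1 lower. Endothelial markers with DOX summed to 198 to 202 CPM in H188A and 399 to 410 CPM in iETV2, with 1 of 8 higher and 4 lower, and neural markers to 308 to 325 CPM in H188A and 147 to 154 CPM in iETV2, with 12 of 15 higher and 1 lower. Fibroblast markers with DOX were 38.2 to 45.9 CPM in H188A and 69.5 to 77.4 CPM in iETV2, and endoderm markers 101 to 221 CPM in H188A and 191 to 201 CPM in iETV2. With DOX 2 of 9 tested fibroblast markers were higher and 4 lower, and 3 of 8 endoderm markers were higher and 2 lower. Their part in the gamma difference was not tested. Of 37 regulators 13 were higher and 5 lower in H188A without DOX, and 15 were higher and 6 lower with DOX. Dnmt3l led those that were higher in both, by 3.90 (SE 0.08, edgeR adjusted p = 8.64e-15) without DOX and by 2.73 (SE 0.07, edgeR adjusted p = 1.55e-13) with DOX. Dnmt3b was higher by 0.65 (SE 0.11, edgeR adjusted p = 0.000127) without DOX. The cohesin subunit gene Smc1a fell by 0.31 (SE 0.07, edgeR adjusted p = 0.00163) without DOX. Among 12 non-clustered protocadherins 2 were higher and 5 lower in H188A without DOX, and Pcdh7 differed most, at 1.93 ± 0.22 CPM in H188A and 108 ± 4.7 CPM in iETV2 (log2 change -5.78, SE 0.23, edgeR adjusted p = 1.24e-11). Of the 18 neighbours 3 were higher and 5 lower, and of the 14 intracellular partners 1 was higher and 5 lower. With DOX the counts were 1 higher and 7 lower for non-clustered protocadherins, 5 higher and 3 lower for neighbours, and 2 higher and 5 lower for partners.

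DOX in the iETV2 line raised part of the gamma cluster. In this comparison 27.0% of 22025 genes passed, 13.7% higher and 13.3% lower with DOX. Of 48 protocadherins tested 18 were higher and 1 was lower, and the median log2 change was 0.35, beside 0.00 over all genes tested (0.002 before rounding). Of the 22 gamma genes 13 were higher and none was lower by edgeR or by DESeq2, with 17 at an unadjusted p under 0.05, all of them higher. Of 19 beta genes tested 4 were higher, and of 7 alpha genes tested 1 was higher and 1 was lower.

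Pcdhgc3 was 99.8, 102 and 96.0 CPM with DOX and 65.3, 68.4 and 64.9 CPM without DOX. Its groups did not overlap, and it rose by 0.60 on the log2 scale (SE 0.07, edgeR adjusted p = 5.69e-06). Pcdhgc4 was 18.1, 16.4 and 17.6 CPM with DOX and 11.3, 12.3 and 11.7 CPM without DOX, and rose by 0.57 (SE 0.09, edgeR adjusted p = 8.92e-05). Pcdhgc5 was 12.9, 13.9 and 11.7 CPM with DOX and 7.11, 8.13 and 8.90 CPM without DOX, and rose by 0.69 (SE 0.10, edgeR adjusted p = 9.31e-05). All 3 C-type gamma genes thus moved by similar amounts. Among gamma A and B genes 10 of 19 rose, by 0.38 to 0.86. The calls of Pcdhga7 and Pcdhga8 were each lost in 4 of 6 fits that left out 1 library. That of Pcdhgb4 was lost in 2 of 6, and those of Pcdhga1 and Pcdhga12 in 1 of 6 each. Pcdhga10 averaged 10.5 ± 0.724 CPM with DOX and 6.33 ± 0.428 CPM without DOX (log2 change 0.74, SE 0.11, edgeR adjusted p = 5.3e-05), and Pcdhgb6 rose by 0.86 (SE 0.14, edgeR adjusted p = 0.000217). Pcdhga1 rose by 0.49 (SE 0.11, edgeR adjusted p = 0.00364). Pcdhga2 did not pass, at 12.8 ± 1.13 CPM with DOX and 11.4 ± 0.489 CPM without DOX (log2 change 0.18, SE 0.10, edgeR adjusted p = 0.2).

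The 2 C-type alpha genes moved in opposite directions. Pcdhac2 was 1.44, 0.806 and 0.7999 CPM with DOX and 0.223, 0.5004 and 0.352 CPM without DOX, and rose by 1.503 (SE 0.46, edgeR adjusted p = 0.0227). Pcdhac1 was 0.193, 0.220 and 0.273 CPM with DOX and 0.550, 0.728 and 0.845 CPM without DOX, and fell by 1.60 (SE 0.51, edgeR adjusted p = 0.0293). These are 11 to 15 counts of Pcdhac1 with DOX and 32 to 48 counts without DOX. The call of Pcdhac1 was lost in 5 of 6 fits that left out 1 library, and that of Pcdhac2 in 2 of 6. Pcdhac2 made up 26% ± 11 of alpha counts with DOX and 7.85% ± 4.1 without DOX (SD, n = 3 each). In the beta cluster Pcdhb22 was 7.38, 6.77 and 7.84 CPM with DOX and 4.57, 4.32 and 5.05 CPM without DOX (log2 change 0.67, SE 0.12, edgeR adjusted p = 0.00035). Pcdhb16 rose by 0.90 (SE 0.29, edgeR adjusted p = 0.0318), a call lost in 4 of 6 fits that left out 1 library. Pcdhb17 and Pcdhb19 were also called higher, and each of these calls was lost in 4 of 6 such fits. Without replicate 1 of iETV2 without DOX, or without replicate 2 of iETV2 with DOX, 11 protocadherins passed in place of 19.

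Endothelial markers summed to 399 to 410 CPM in iETV2 with DOX and 16.1 to 20.6 CPM without DOX, and all 8 rose. Neural markers, in contrast, summed to 147 to 154 CPM with DOX and 266 to 280 CPM without DOX, with 10 of 14 tested lower. Fibroblast markers were 69.5 to 77.4 CPM with DOX and 42.2 to 58.0 CPM without DOX, and pluripotency markers 1050 to 1150 CPM with DOX and 1010 to 1060 CPM without DOX. Of 9 fibroblast markers tested 4 rose and 3 fell, and of 10 pluripotency markers 4 rose and 1 fell. Their part in the gamma change was not tested. Of 37 regulators 2 rose and 4 fell, among them Dnmt3b, which fell by 0.87 (SE 0.07, edgeR adjusted p = 7.65e-08). Of 12 non-clustered protocadherins 5 rose and 1 fell, and Pcdh12 had the largest change, at 11.9 ± 0.59 CPM with DOX and 0.561 ± 0.44 CPM without DOX (log2 change 4.55, SE 0.29, edgeR adjusted p = 5.2e-09). Of the 18 neighbours 2 rose and 1 fell, and of the 14 intracellular partners 2 rose and 2 fell. Taf7, between the beta and gamma clusters, did not pass, with a log2 change of -0.20 (SE 0.07, edgeR adjusted p = 0.0508).

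**Figure D4:**
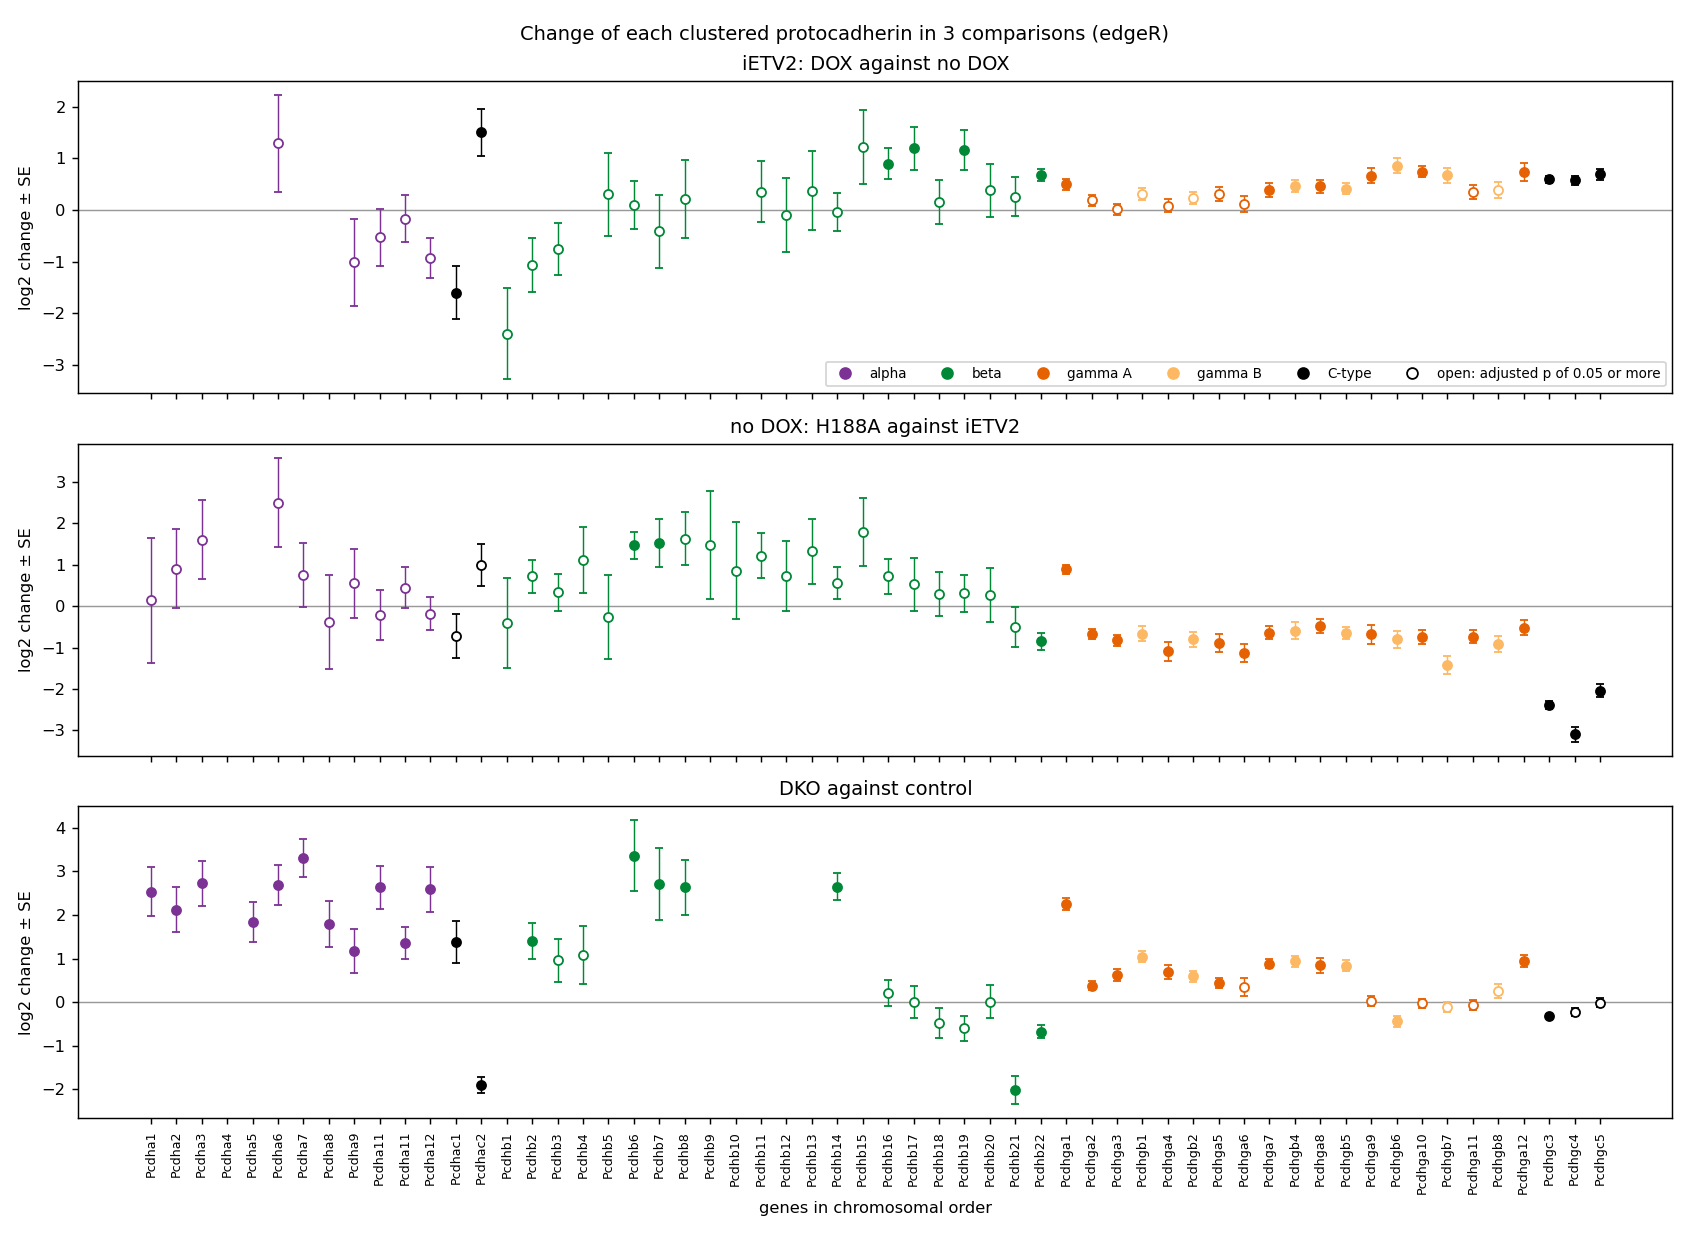
Log2 change with SE of each tested clustered protocadherin, in chromosomal order, for DOX in iETV2, H188A against iETV2 without DOX, and DKO against control; filled points had an edgeR adjusted p under 0.05. In DKO the alpha genes other than Pcdhac2 lie at 1.177 or higher, and in H188A the C-type gamma genes lie lowest, at -2.05 to -3.096.

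For DOX in the H188A line 1 protocadherin was called, and genes not called are not shown to be unchanged. Of 22 gamma genes 19 had a positive log2 change, and of 20 beta genes tested 16 had a negative one. The median over all genes tested was -0.01. Genes of a cluster were measured in the same libraries, so these counts are only a description. Without replicate 1 of H188A with DOX, the log2 ratio of the summed gamma cluster moved from 0.188 to 0.015. That of the beta cluster was -0.428, and was weaker without replicate 1 of H188A without DOX, which had the highest receptor sum. Both ratios kept their sign whichever library was left out. Only 3.02% of 21086 genes passed, 2.22% higher and 0.801% lower. Of 51 protocadherins tested Pcdhgc3 was the one that passed, with 3 at an unadjusted p under 0.05, so the share called was no larger than that of all genes. It was 22.9, 19.3 and 19.6 CPM with DOX and 11.5, 12.5 and 12.5 CPM without DOX, and rose by 0.80 (SE 0.09, edgeR adjusted p = 0.00359). The groups did not overlap, and the call held in all 6 fits that left out 1 library. Pcdhgc4 was 1.93, 1.78 and 1.80 CPM with DOX and 1.98, 0.992 and 1.13 CPM without DOX (log2 change 0.49, SE 0.29, edgeR adjusted p = 0.345). Pcdhgc5 was 1.58, 1.178 and 1.22 CPM with DOX and 2.33, 1.86 and 1.51 CPM without DOX (log2 change -0.46, SE 0.26, edgeR adjusted p = 0.312). In this line endothelial markers summed to 198 to 202 CPM with DOX and 92.5 to 102 CPM without DOX, and 6 of 8 rose. Neural markers summed to 308 to 325 CPM with DOX and 369 to 373 CPM without DOX, and 3 of 15 fell. No tested pluripotency, fibroblast or endoderm marker passed. The part of the markers in the rise of Pcdhgc3 was not tested. Of the non-clustered protocadherins Pcdh12 rose by 2.60 (SE 0.57, edgeR adjusted p = 0.0449) and Pcdh8 fell by 0.71 (SE 0.12, edgeR adjusted p = 0.0208), and of the neighbours Arap3 rose by 1.33 (SE 0.09, edgeR adjusted p = 8.01e-05).

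The difference between the DOX responses of the lines was tested as an interaction, in which 14.4% of 25516 genes passed, 8.22% with a more positive and 6.20% with a more negative response in H188A. Of 56 protocadherins tested 2 passed, a smaller share than over all genes, and these were Pcdhgc5 at -1.14 (SE 0.23, edgeR adjusted p = 0.00245) and Pcdhga1 at -0.50 (SE 0.15, edgeR adjusted p = 0.0316). Pcdhga1 had a log2 change with DOX of -0.01 (SE 0.09) in H188A and of 0.49 (SE 0.11) in iETV2. The difference of Pcdhgc3 did not pass, at 0.21 (SE 0.12, edgeR adjusted p = 0.297), and that of Pcdhac2 had a difference of -2.12 (SE 0.72, edgeR adjusted p = 0.0631). The call of Pcdhga1 was lost in 9 of 12 fits that left out 1 library.

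H3K9me3 regions were examined over the clusters in the authors' lists, which were called per library. Each region consists of whole windows of 200 bp. On GRCm38 the members span chr18:36930285-37188897 (alpha), chr18:37264998-37521419 (beta) and chr18:37661775-37841873 (gamma). The first 2500 bp of a gene stand here for its start, which for alpha and gamma genes holds the variable first exon. The labels do not say which line the embryoid bodies came from, so these regions and the RNA were measured in different samples.

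Coverage of the starts followed gene type. Of 12 gamma A symbols, 9 had at least 50% of the start within regions in all 6 libraries, and so did all 7 gamma B symbols. Of 11 numbered alpha symbols, 7 were covered to that extent in all 6 libraries. In contrast, Pcdha12, both C-type alpha genes, all 3 C-type gamma genes and 20 of 22 beta genes had no covered base at their starts in any of the 6 libraries. The remaining 8 symbols lay in between. In stretches covered in all 6 libraries, the longest over gamma starts was chr18:37746801-37765000, which is 18.2 kb and holds the starts of Pcdhga10, Pcdhgb7, Pcdhga11 and Pcdhgb8.

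Some starts differed between libraries. Of the starts of 57 symbols, 3 were covered less in every DOX library than in every untreated one, and 0 were covered more. The 3 were those of Pcdha2, Pcdha4 and Pcdhga4. How many starts of all genes separate in this way was not tested, so these counts have no background to be read against. With 3 libraries a group, such a separation can arise from the spread between libraries alone, and the counts are only a description. Pcdha2 was covered over 0, 0 and 0% of its start in the DOX libraries and 100, 100 and 60% in the untreated libraries. Pcdha4 was covered over 55.5, 0 and 55.5% with DOX and 100, 100 and 100% untreated, and Pcdhga4 over 94.6, 0 and 94.6% with DOX and 100, 100 and 100% untreated. These 3 were named after their values were seen. Pcdhga1 was covered over 88, 80 and 100% with DOX and 100, 89 and 91% untreated, and its groups overlapped. Pcdhga2 was covered over 89, 97 and 0% with DOX and 73, 100 and 81% untreated, and its groups overlapped too.

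**Figure D5:**
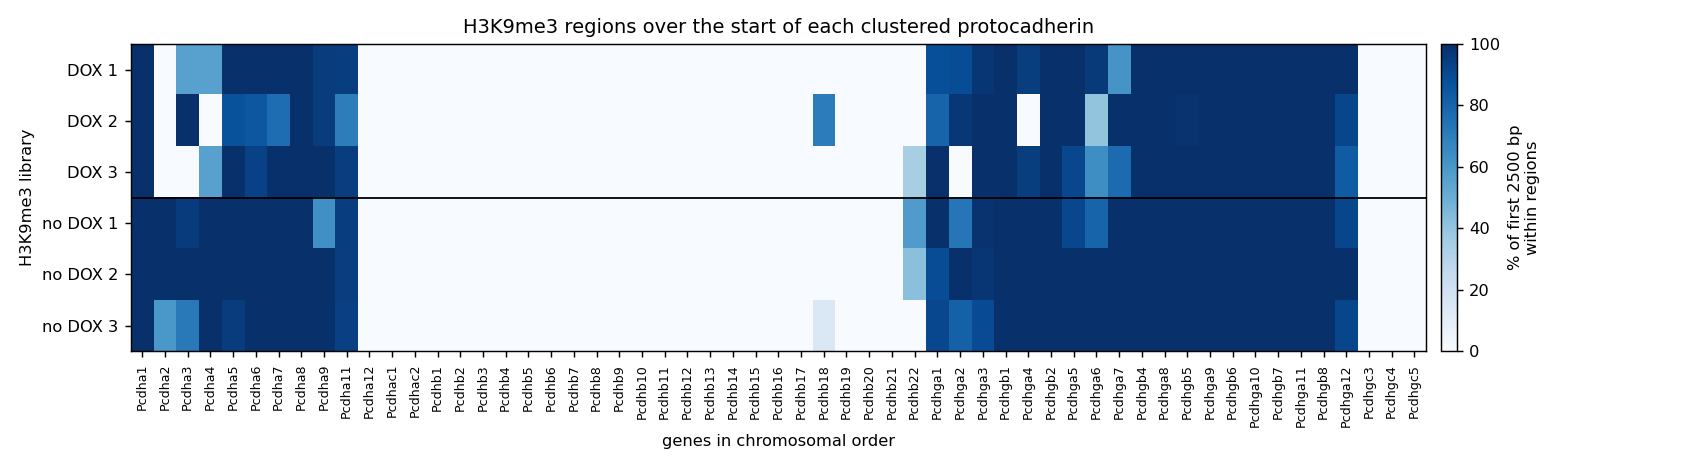
Percent of the first 2500 bp of each clustered protocadherin that lies within H3K9me3 regions, in chromosomal order, in 3 DOX libraries (upper rows) and 3 untreated libraries (lower rows). Most starts of numbered alpha genes up to Pcdha11 and of gamma A and B genes are dark in all libraries, Pcdha2 is at 0 in the 3 DOX libraries, and Pcdha12, the C-type genes and nearly all beta genes are at 0.

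Over the whole alpha span, 40.2, 35.4 and 37.8% of bases lay within regions in the DOX libraries and 38.7, 51.2 and 47.1% in the untreated libraries. Over the gamma span it was 52.4, 41.8 and 48.5% with DOX and 50.2, 55.8 and 54.1% untreated, and these pairs overlapped. Over the beta span it was 16.1, 13.8 and 9.05% with DOX and 20.5, 23.0 and 22.4% untreated, and these groups did not overlap. Covered length over the beta cluster averaged 33.3 ± 9.19 kb with DOX and 56.4 ± 3.33 kb untreated, a difference of -23.1 kb (two-sided exact permutation test, p = 0.1, the smallest that 3 against 3 libraries allow, adjusted p = 0.3 over 9 measures). For all clusters together it averaged 216.7 ± 20 kb with DOX and 270.5 ± 24.9 kb untreated, a difference of -53.9 kb (exact permutation test, p = 0.1, adjusted p = 0.3). Genome-wide, regions covered 244.7 ± 45 Mb with DOX and 264.1 ± 31.4 Mb untreated. The number of regions over the clusters was 31.3 ± 0.577 with DOX and 31.7 ± 4.93 untreated (exact permutation test, p = 1). With 3 libraries a group no result of this kind can pass 0.05.

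In the regions over the clusters, the log2 of ChIP over input counts was 1.49, 1.38 and 1.39 with DOX and 1.29, 1.53 and 1.58 untreated. It exceeded the same ratio over all regions of the library by 0.07, 0.17 and 0.19 with DOX and by 0.13, 0.15 and 0.16 untreated. The regions were selected on this ratio, so it is a description. In the 200 kb before the alpha cluster regions covered 58.8 to 60.9% with DOX and 60.4 to 61.4% untreated, and in the 200 kb after the gamma cluster no base was covered in any of the 6 libraries.

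Set beside the RNA by gene identifier, 24 of the 58 genes had starts covered by at least 50% in all 6 libraries. In DKO against control 18 of these 24 were higher, 1 was lower and 5 did not pass, with a median log2 change of 0.91, beside 35.6% higher and 33.7% lower over all genes. Of the 26 genes with uncovered starts 18 were tested, of which 7 were higher and 3 were lower, with a median of 0.58, and of the 8 in between 7 were tested, of which 4 were higher and 1 was lower. The low-count filter can keep a gene on its DKO level alone, so these DKO counts and medians are only a description. In H188A against iETV2 without DOX, 15 of 23 tested genes with covered starts were lower and 1 was higher, 3 of 26 with uncovered starts were lower and 2 were higher, and 4 of 7 in between were lower, beside 18.6% lower over all genes. With DOX in iETV2 10 of 20 tested genes with covered starts and 7 of 23 with uncovered starts rose, and 1 of 5 in between, beside 13.7% higher over all genes. Coverage and cluster overlap, since nearly all beta genes were uncovered, so these counts alone do not separate the 2. Between the lines without DOX none of 12 tested alpha genes passed by edgeR, covered or not, whereas all 22 gamma genes did. For DOX in iETV2 none of the 4 tested genes from Pcdha1 to Pcdha11 passed. In these 2 comparisons the calls among covered starts were thus all of gamma genes, and a part of coverage was not tested. The covered start of Pcdhga1 belonged to the gamma gene that was higher in H188A. The uncovered starts of Pcdhgc3, Pcdhgc4 and Pcdhgc5 belonged to the genes that fell furthest there, and these 3 rose with DOX in iETV2.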

How the data were processed

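RNA came as 18 libraries in 6 groups of 3 and H3K9me3 as 6 ChIP libraries. For RNA the authors deposited 1 table of raw counts by Ensembl gene for every library. Per the submitters' processing notes, the tools included featureCounts 2.0.6, HTSeq 2.0.3, StringTie 2.2.1, STAR 2.7.10b, Picard 3.0.0, DESeq2 1.18.1, Bowtie, DiffBind and ChIPseeker, with no roles stated, and the builds GRCm38 and mm10. The tool that made the counts and its strand setting are not given in the sources used here. For ChIP the authors deposited region lists with ChIP and input counts, and per the file headers a log2 fold change, an FDR and p-value, and a score for each region. In the deposited values the log2 fold change equals log2 of ChIP counts over input counts, minus a constant for the library, and the score is a multiple of it. Input libraries entered only through the input counts of the region lists.

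Symbols and GRCm38.p6 positions came from RefSeq tables, without strand; starts were taken at the lower coordinate, since alpha genes, and likewise gamma genes, end together at the upper one. All 58 members had a position by symbol, which the 2 Pcdha11 identifiers share, and 1 RefSeq symbol of the rule (Pcdha10) had no gene in the tables. Counts were analysed in R 4.3.3 with edgeR 4.0.16 (filterByExpr, TMM, quasi-likelihood F test, Benjamini-Hochberg over all genes tested, threshold 0.05). An SE was obtained as the absolute log2 change over the root of its F statistic. Fits used the 6 libraries of the comparison for DOX in each line and for DKO, and 12 libraries for line comparisons and the interaction. DESeq2 1.42.0, other filters and scaling, leaving out each library, a block on the replicate number and a receptor covariate were alternatives, and the covariate in DKO was added after seeing the data. The edgeR script was tested on simulated data. ChIP used Python 3.11.15 with scipy 1.17.1 and pandas 2.3.3, and exact permutation tests. Library totals set the counting precision, and single alpha and beta genes rest on few counts.

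The members, lists and tests were chosen with earlier results of these data known. Genes named are, per comparison, up to 6 members per direction and up to 4 of each list per direction with the smallest adjusted p, the 3 members of each cluster with the most counts and all C-type genes. Pcdha2, Pcdha4, Pcdha8, Pcdha9, Pcdhb17, Pcdhb19, Pcdhga4, Pcdhga8, Pcdhga9, Pcdhga12, Pcdhgb4, Smchd1, Ctcf, Taf7 and Diaph1 were named outside this rule where it did not pick them. The other members are given as counts and ranges. No promoter or protein sequence is given.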

Additional observations from a re-analysis of the deposited data

Results flagged for a closer look

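The response to DOX differed between the lines, by an interaction term in edgeR, for 2 clustered protocadherins. For Pcdhgc5 the response in H188A minus that in iETV2 was -1.14 on the log2 scale (SE 0.23, edgeR adjusted p = 0.00245). The gene had 1.33 ± 0.217 CPM in H188A with DOX and 1.90 ± 0.413 CPM in H188A without DOX, and 12.9 ± 1.09 CPM in iETV2 with DOX and 8.05 ± 0.896 CPM in iETV2 without DOX (SD, n = 3 each). For Pcdhga1 it was -0.50 (SE 0.15, edgeR adjusted p = 0.0316), at 9.996 ± 0.424 CPM in H188A with DOX and 10.4 ± 0.624 CPM in H188A without DOX, and 8.14 ± 0.701 CPM in iETV2 with DOX and 5.86 ± 0.557 CPM in iETV2 without DOX. Of the 56 protocadherins tested 2 passed, beside 14.4% of all genes.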

How the results depend on the processing

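No call of a single clustered protocadherin changed direction under any alternative run that still tested the gene. Of 1326 such recomputed calls 100 no longer passed. Calls of genes that an alternative did not test, or gave no adjusted p, are in neither number. In DKO 20 of the protocadherins passed under a stricter low-count filter, which tested 31 of them and called 80.1% of all genes, in place of 34 of 49 beside 69.3%. For the interaction 4 passed with DESeq2, 1 without a low-count filter and 5 in a single fit on all 18 libraries, in place of 2. The gamma sum in DKO differed from controls by 0.15 (log2) with TMM-scaled totals, in place of 0.26. The number of H3K9me3 regions over the clusters differed by 1 when at least 50% of a region had to lie inside, in place of -0.33, and by 1.33 or 0.83 without untreated replicate 1 or 3. The log2 of ChIP over input counts differed by -0.0902 as a median over regions, in place of -0.00488. The cause of these shifts was not tested, apart from the genes lost to the stricter filter. Leaving out 1 library gave 11 to 21 called protocadherins for DOX in iETV2, 1 for DOX in H188A, 32 to 36 in DKO, 1 to 5 for the interaction, and 20 to 27 without and 24 to 25 with DOX between the lines. Region numbers then differed by -3.17 to 1.33 and covered length by -67.6 to -43.3 kb.

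Samples with the same replicate number did not deviate together in every pair. For DOX in iETV2 their deviations correlated at 0.070, 0.308 and 0.570, and for DOX in H188A at -0.235, 0.124 and 0.362. In DKO against control they correlated at 0.001, -0.008 and 0.029. Libraries of different number were not compared, so whether the numbers pair libraries is not settled, and the main tests were unpaired. With a replicate block 26 protocadherins passed for DOX in iETV2 (38% of all genes, in place of 19 beside 27.0%), 1 for DOX in H188A, 34 in DKO, 2 for the interaction, and 23 without and 26 with DOX between the lines. With the receptor covariate 1 passed for DOX in H188A, 3 for the interaction, 26 between the lines without DOX and 30 in DKO.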
